A study of Homo sapiens with 8 samples.

Results

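The genes described here are 10 core components of the transforming growth factor beta (TGF-beta) pathway, chosen by name: the ligand genes TGFB1 and TGFB2, the receptor genes TGFBR1, TGFBR2 and TGFBR3, the signal transducer genes SMAD2, SMAD3 and SMAD4, and the latent binding protein genes LTBP1 and LTBP3. All 10 were found among the 22554 features of the count and FPKM tables. Messenger RNA had been sequenced from SKOV3, an established human ovarian cancer cell line, kept in McCoy's 5A medium with fetal bovine serum and antibiotics. For 4 samples the medium held 50 µg/mL of low-density lipoprotein (LDL), the particle that carries most cholesterol in blood, over 48 h; 4 control samples had the same medium with no LDL added and shared the incubator. SKOV3 is a single cell line, and nothing in the labels tells if samples within a group came from separate cultures, so p-values measure only how these samples vary, and that variation may be technical.

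TGF-beta ligands are secreted as latent complexes in which the cut-off propeptide still holds the mature growth factor, and LTBP1 and LTBP3 tie that complex to the extracellular matrix until integrins or proteases set the ligand free. Free ligand is bound by the type II receptor TGFBR2, helped by the co-receptor TGFBR3 (betaglycan), and TGFBR2 then phosphorylates the type I receptor TGFBR1. TGFBR1 phosphorylates SMAD2 and SMAD3, which join SMAD4 and enter the nucleus to regulate genes. In epithelial cancers the pathway is known both for restraining growth and for promoting invasion. The series title concerns LDL and metastasis of ovarian cancer cells, and the comparison here asks whether LDL changed the RNA of the pathway's own components.

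None of the 10 genes passed the test. In edgeR's quasi-likelihood test over 15432 features, 10 features, or 0.0648%, had a Benjamini-Hochberg adjusted p under 0.05, and 0 of the 10 components were among them. Of the 10, 5 had a log2 fold change (LDL over control) above 0 and 5 below 0, with a median of 0.0042, beside 52.3% above 0 and a median of 0.0060 over all tested features. LTBP3 was the component with the smallest p, at 0.817 of its control level. SMAD4 was the other component with an unadjusted p under 0.05, so 2 of 10 fell under that value, where 5.59% of all tested features did. DESeq2 gave 1 component, LTBP3, past its adjusted threshold, where 0.24% of its tested features passed.

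Total counts were 34682501 to 36780334 in the LDL libraries and 37189698 to 44883561 in the control libraries, and the LDL libraries were thus the less deep, without overlap. Over all genes LDL sample 4 had the most extreme first principal component score, -46.05 against -1.856 to 17.37 in the other 7 libraries. On the second component LDL sample 2 was the most extreme, at 35.27 against -19.4 to 18.7 in the other 7 libraries. The first component held 18.9% of the variance and the second 16.4%. Leaving out LDL sample 1 took the number of called features to 149, or 0.954%, and leaving out any other single library gave 2 to 26. Without LDL samples 1 and 4 together, 1.56% were called. That fit was added after seeing the data and kept only LDL samples 2 and 3 of the LDL group, so its calls are no separate support. LTBP3, 1 of the 10 components, was among the calls without LDL sample 1 and in that fit. ERBB2, a growth factor receptor gene amplified in SKOV3, stood at 2515 ± 391.7 CPM in LDL and 2590 ± 133 CPM in control samples (SD, n = 4 each). The 10 epithelial and ovarian carcinoma markers summed to 6135 to 6646 CPM in LDL and 6014 to 6481 CPM in control libraries, with MUC16 and WT1 below 1 CPM on average in both groups. The listed markers of other cell types were low: 6 fibroblast markers summed to 20.4 to 33.0 CPM in LDL and 29 to 32.1 CPM in control libraries, mostly from COL3A1 and LUM. The collagen I genes were not in that list. COL1A1 averaged 323.8 CPM in LDL and 354.3 CPM in control samples, and COL1A2 9.34 CPM in LDL and 8.96 CPM in control samples. The 5 leukocyte markers summed to 0.718 to 1.30 CPM in LDL and 0.904 to 1.09 CPM in control libraries, with PTPRC and ITGAM at 0 in every library, and the 5 endothelial markers to 2.85 to 5.00 CPM in LDL and 3.90 to 5.01 CPM in control libraries.

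The bases upstream of the ligand genes and of the latent binding protein genes are shown because each pair holds related genes with unlike values: TGFB1 and TGFB2 in level, LTBP3 and LTBP1 in their spread under LDL. Each sequence is the 250 bases before the annotated RefSeq start, 5′ to 3′ on the gene's strand, from GRCh38.p14. Capitals mark the core SMAD binding motif CAGAC and the GC box GGGCGG, each on either strand, and no marked match overlapped another.
LTBP3: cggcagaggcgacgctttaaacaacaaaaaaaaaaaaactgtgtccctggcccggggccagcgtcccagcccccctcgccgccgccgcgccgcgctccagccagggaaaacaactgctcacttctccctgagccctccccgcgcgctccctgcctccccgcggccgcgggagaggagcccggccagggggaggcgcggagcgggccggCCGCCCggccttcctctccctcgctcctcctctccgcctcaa
LTBP1: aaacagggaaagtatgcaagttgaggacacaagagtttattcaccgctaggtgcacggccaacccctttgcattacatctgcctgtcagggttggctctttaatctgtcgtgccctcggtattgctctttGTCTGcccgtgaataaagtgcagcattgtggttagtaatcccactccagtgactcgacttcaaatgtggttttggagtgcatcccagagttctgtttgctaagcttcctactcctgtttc
TGFB1: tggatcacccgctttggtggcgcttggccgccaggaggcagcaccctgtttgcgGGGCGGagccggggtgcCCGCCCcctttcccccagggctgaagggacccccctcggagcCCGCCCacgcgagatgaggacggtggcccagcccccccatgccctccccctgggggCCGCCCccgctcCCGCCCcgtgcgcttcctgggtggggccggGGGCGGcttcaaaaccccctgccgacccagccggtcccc
TGFB2: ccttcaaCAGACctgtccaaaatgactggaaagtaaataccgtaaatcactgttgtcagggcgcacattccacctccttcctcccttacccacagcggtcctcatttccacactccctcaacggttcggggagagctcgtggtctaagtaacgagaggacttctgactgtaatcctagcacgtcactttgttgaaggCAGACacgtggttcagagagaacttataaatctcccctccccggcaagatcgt
The LTBP3 stretch is chr11:65558229-65558478 on the minus strand and is 71.6% G or C. That of LTBP1 is chr2:33134346-33134595 on the plus strand and is 47.6% G or C. The TGFB1 stretch is chr19:41353923-41354172 on the minus strand, with 76.8% G or C and 6 GC boxes. The TGFB2 stretch is chr1:218345086-218345335 on the plus strand, with 50.4% G or C, no GC box and 2 core SMAD motifs. Apart from those of TGFB1 and TGFB2, and of TGFBR2 in part, the stretches of the components lie inside the gene as GENCODE annotates it, so other annotated transcripts start farther upstream.

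All 10 components had such an upstream stretch in the RefSeq table. The core SMAD motif was present in 3 of them (TGFB2, SMAD3 and LTBP1), and in 38.0% of the 35116 upstream stretches of the same length. The SMAD3 stretch starts at chr15:67166281 and that of LTBP1 at chr2:33134346. GENCODE starts these plus-strand genes far upstream, at 67063763 and 32946972, and which start SKOV3 uses was not tested. The GC box was present in 7 of them, and in 42.6% of all. Neither the SMAD palindrome GTCTAGAC, present in 0.182% of all stretches, nor the sterol regulatory element TCACNCCAC, present in 0.883%, was found in any of the 10; both strands were searched. A match describes the letters and not a bound site.

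Among the latent binding proteins, LTBP3 stood lower with LDL in every sample, while LTBP1 did not. LTBP3 (ENSG00000168056) lies on the minus strand at chr11:65538805-65558930 of GRCh38 and overlaps no other annotated gene. Its levels, as CPM (counts scaled to library size with trimmed-mean, TMM, factors), were 66.6, 63.4, 61.6 and 52.9 in LDL samples 1 to 4, against 71.6, 75.3, 72.7 and 79.6 in control samples 1 to 4. All 4 LDL samples lay below all 4 control samples, with LDL sample 4 the lowest and LDL sample 1 the nearest to the controls. The means were 61.1 ± 5.85 CPM in LDL and 74.8 ± 3.55 CPM in control samples (SD, n = 4 each). As a log2 fold change this was -0.29 (SE 0.069, 95% interval -0.44 to -0.15), and its edgeR adjusted p over all genes was 0.25, at rank 32 by p. For LTBP3 an exact two-sided permutation test gave p = 0.0286, and no smaller p is possible with 4 samples against 4. Any gene whose groups do not overlap gets this p, so it restates the lack of overlap. It is not adjusted for the number of components. LTBP3 was the single component whose groups did not overlap, and across all tested features 3.45% had groups that did not overlap, 1.71% with LDL lower.

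Whether LTBP3 passed depended on LDL sample 1 and on the tool. Without LDL sample 1 it stood at -0.34 on the log2 scale and passed (edgeR adjusted p = 0.0263), and with any other single library left out it ran from -0.32 to -0.23 with adjusted p from 0.268 to 0.71. DESeq2 on all 8 libraries gave -0.30 with an adjusted p of 0.0338. Over every alternative run the adjusted p of LTBP3 ran from 0.0263 to 0.759, and its log2 fold change was below 0 in each.

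LTBP1 (ENSG00000049323, plus strand, chr2:32946972-33399509), which anchors latent TGF-beta to fibrillin and fibronectin fibres, was spread widely among the LDL samples. It had 101.5, 66.8, 76.1 and 78.6 CPM in LDL samples 1 to 4, against 76.9, 85.8, 81.7 and 78.8 CPM in control samples 1 to 4. LDL sample 1 was the highest of all 8 libraries, while LDL samples 2, 3 and 4 each lay below the mean of the controls. The means were 80.7 ± 14.7 CPM in LDL and 80.8 ± 3.90 CPM in control samples (SD, n = 4 each), and the log2 fold change was -0.00055 with a 95% interval of -0.24 to 0.24 (edgeR adjusted p = 1.00). With LDL sample 1 left out it was -0.13 (edgeR adjusted p = 0.349).

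**Figure D1:**
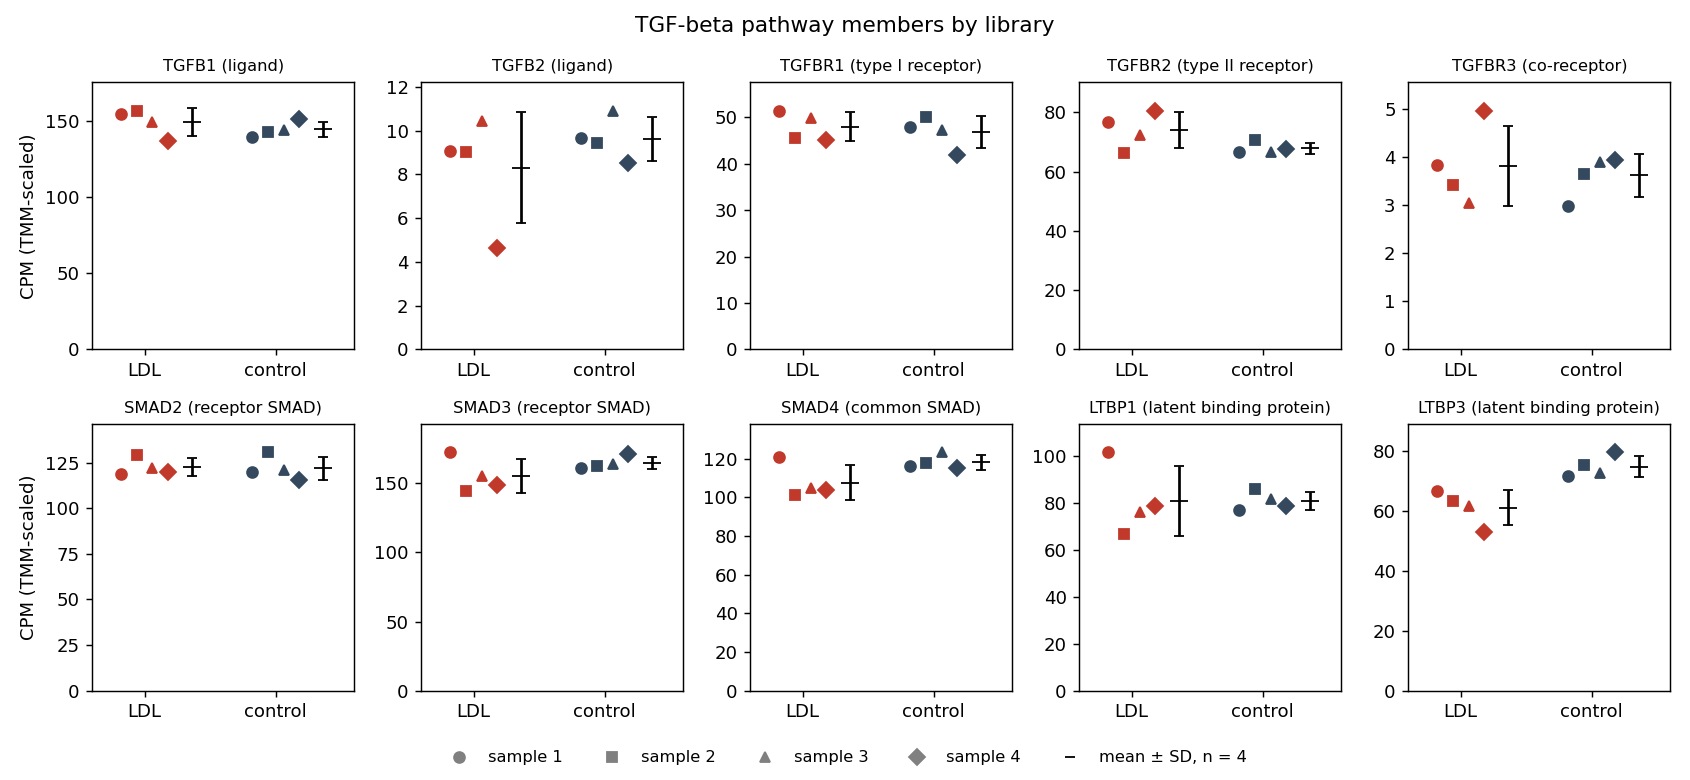
CPM (TMM-scaled) of the 10 components in each library, LDL on the left and control on the right of every panel, with the mean ± SD of 4 samples beside the points. LTBP3 is the 1 panel in which the groups do not overlap. In TGFBR1, SMAD3, SMAD4, LTBP1 and LTBP3 LDL sample 1 lies above the other LDL samples.

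The ligand genes differed greatly in level and did not pass the test. TGFB1 (ENSG00000105329, minus strand, chr19:41301587-41353911), the most widely expressed TGF-beta isoform, had 154.7, 156.8, 149.7 and 136.8 CPM in LDL samples 1 to 4, against 139.8, 143.0, 144.4 and 151.6 CPM in control samples 1 to 4. The highest 2 values and the lowest of the 8 were all in LDL samples, and the groups overlapped. The means were 149.5 ± 8.96 CPM in LDL and 144.7 ± 5.01 CPM in control samples (SD, n = 4 each). Its log2 fold change was 0.047 with a 95% interval of -0.064 to 0.16 (edgeR adjusted p = 0.943). TGFB1 overlaps 4 annotated genes on the opposite strand, and reads from opposite strands can be told apart only if the counting used strand, which is not given in the sources used here. HNRNPUL1, the most abundant of them, had 16262 to 19339 counts in LDL and 18964 to 23650 counts in control libraries.

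TGFB2 (ENSG00000092969, plus strand, chr1:218346235-218444619), the isoform known to depend most on TGFBR3 for receptor binding, was far lower. It had 9.09, 9.04, 10.4 and 4.62 CPM in LDL samples 1 to 4, against 9.65, 9.42, 10.9 and 8.51 CPM in control samples 1 to 4. LDL sample 4, with 161 counts, was the lowest, and LDL samples 1, 2 and 3 lay within the range of the controls. The log2 fold change was -0.21 with a 95% interval of -0.65 to 0.23 (edgeR adjusted p = 0.932), and without LDL sample 4 it was -0.014.

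The receptor genes also overlapped between groups. TGFBR2 (ENSG00000163513, plus strand, chr3:30606502-30694142), the ligand-binding type II receptor, had 76.7, 66.3, 72.2 and 80.4 CPM in LDL samples 1 to 4, against 66.7, 70.5, 66.6 and 67.5 CPM in control samples 1 to 4. LDL samples 1, 3 and 4 lay above every control and LDL sample 2 below every control. The means were 73.9 ± 6.10 CPM in LDL and 67.8 ± 1.84 CPM in control samples (SD, n = 4 each), the largest positive log2 fold change of the 10 at 0.12 (SE 0.062, 95% interval -0.0082 to 0.25, edgeR adjusted p = 0.879). TGFBR1 (ENSG00000106799, plus strand, chr9:99104038-99154192), the type I receptor kinase, averaged 48.0 ± 3.14 CPM in LDL and 46.8 ± 3.46 CPM in control samples (SD, n = 4 each), with a log2 fold change of 0.035 and a 95% interval of -0.11 to 0.18 (edgeR adjusted p = 0.965). TGFBR3 (ENSG00000069702, minus strand, chr1:91680343-91906335) was the lowest component, with 3.84, 3.43, 3.06 and 4.97 CPM in LDL samples 1 to 4, against 2.98, 3.66, 3.90 and 3.95 CPM in control samples 1 to 4. LDL sample 4, the library with the least TGFB2, had the most TGFBR3. TGFBR3 had 106 to 176 counts a library, and its log2 fold change was 0.078 with a 95% interval of -0.31 to 0.46 (edgeR adjusted p = 0.973).

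Among the SMAD genes, SMAD3 and SMAD4 had like profiles over the libraries. SMAD4 (ENSG00000141646, plus strand, chr18:51028394-51085045), the partner shared by all receptor-activated SMADs, had 121.1, 101.0, 104.9 and 103.8 CPM in LDL samples 1 to 4, against 116.2, 117.8, 123.4 and 115.0 CPM in control samples 1 to 4. LDL samples 2, 3 and 4 lay below every control, and LDL sample 1 lay among the controls. The means were 108 ± 9.06 CPM in LDL and 118 ± 3.72 CPM in control samples (SD, n = 4 each), with a log2 fold change of -0.13 (SE 0.059, 95% interval -0.26 to -0.0084). It missed the threshold with all 8 libraries (edgeR adjusted p = 0.876) and without LDL sample 1 (log2 fold change -0.19, edgeR adjusted p = 0.0569). The exact two-sided permutation p for SMAD4 alone was 0.114. A read-through gene on the same strand, ENSG00000267699, overlaps SMAD4 and had 2 to 12 counts in LDL and 1 to 10 counts in control libraries, so adding it left the SMAD4 values almost as they were.

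SMAD3 (ENSG00000166949, plus strand, chr15:67063763-67195195), the receptor-activated SMAD that binds DNA directly, had 172.5, 144.4, 155.2 and 148.7 CPM in LDL samples 1 to 4, against 160.9, 162.5, 164.2 and 170.9 CPM in control samples 1 to 4. LDL sample 1 was the highest of the 8 libraries and LDL samples 2, 3 and 4 were the lowest. The log2 fold change was -0.085 with a 95% interval of -0.20 to 0.033 (edgeR adjusted p = 0.884), and without LDL sample 1 it was -0.14 (edgeR adjusted p = 0.153). Over the 8 libraries log2 CPM of SMAD3 and SMAD4 had a Pearson correlation of 0.875, the highest of any pair of components, and SMAD3 and LTBP1 one of 0.758. These are descriptions over libraries that include both groups.

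SMAD2 (ENSG00000175387, minus strand, chr18:47808957-47931146), the other receptor-activated SMAD of this pathway, gave different pictures in the 2 tables. Its counts were even: 118.8, 129.4, 122.2 and 119.9 CPM in LDL samples 1 to 4, against 120.1, 130.7, 121.1 and 115.4 CPM in control samples 1 to 4. The groups overlapped fully in counts, with a log2 fold change of 0.0089 and a 95% interval of -0.10 to 0.12 (edgeR adjusted p = 0.993). Its deposited FPKM values, fragments scaled to length and depth by the authors, were 9.84, 6.23, 6.27 and 5.77 in LDL samples 1 to 4, against 8.84, 9.63, 9.60 and 8.01 in control samples 1 to 4. In FPKM, LDL samples 2, 3 and 4 lay below every control and LDL sample 1 above every control. On the log2(FPKM + 1) scale the difference was -0.34, and it did not pass (limma adjusted p = 0.745).

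The gap between the tables can be written as a length, which restates the ratio of counts to FPKM. It was computed for each component from its counts and FPKM, calibrated in each library on 551 genes with a single annotated transcript, for which the computed length was within a median of 1.01-fold of the annotated one. For SMAD2 it was 11.7, 19.7, 18.4 and 19.8 kb in LDL samples 1 to 4, against 13, 12.9, 11.9 and 13.7 kb in control samples 1 to 4. LDL samples 2, 3 and 4 thus stood apart from the other 5 libraries. GENCODE annotates SMAD2 coding transcripts of 34.53, 12.07 and 10.45 kb, and its other SMAD2 transcripts are 1.97 kb or shorter. SMAD2 was the component whose counts per FPKM differed most between libraries, by 1.68-fold from lowest to highest, and 2.57% of 13596 genes with at least 1 CPM on average had a wider range, beside a median range of 1.04-fold. For the other 9 components the range was 1.01-fold to 1.09-fold, and their mean computed lengths were 0.919 to 1.16 times the longest annotated transcript (for SMAD3, 6.32 kb computed and 6.25 kb annotated). Which reads, transcripts or length the deposited SMAD2 FPKM rested on is not given in the sources used here and was not tested.

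**Figure D2:**
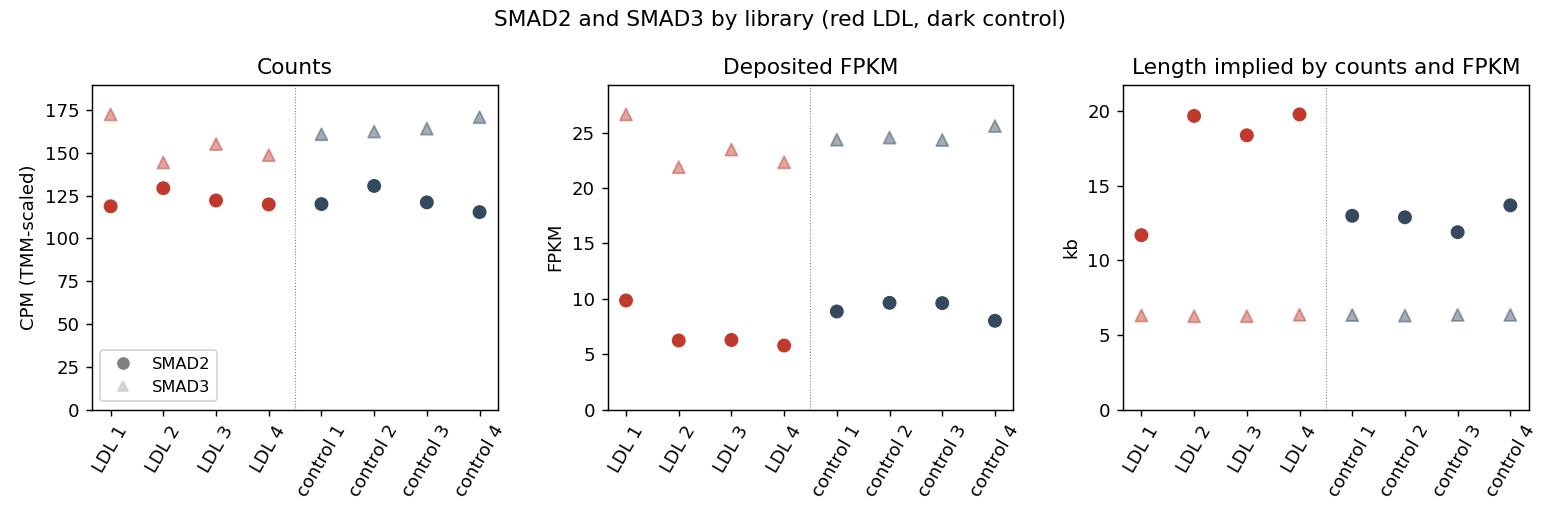
SMAD2 (circles) and SMAD3 (pale triangles) in each library: CPM from the counts, deposited FPKM, and the length in kb implied by both, with LDL libraries in red on the left and control libraries in dark on the right. SMAD2 is even in CPM, lower in FPKM in LDL samples 2, 3 and 4, and its implied length there is 18.4 to 19.8 kb, against 11.7 to 13.7 kb in the other 5 libraries.

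Per length, in deposited FPKM, the components spanned a wide range of levels in SKOV3. TGFB1 was the highest at 51.5 ± 3.25 FPKM in LDL and 49.6 ± 1.65 FPKM in control samples (SD, n = 4 each). SMAD3 followed at 23.6 ± 2.15 FPKM in LDL and 24.7 ± 0.598 FPKM in control samples (SD, n = 4 each). Below it TGFBR2 (15.5 ± 1.38 FPKM in LDL, 14.1 ± 0.379 FPKM in control), LTBP3 (13.2 ± 1.40 FPKM in LDL, 16.3 ± 1.28 FPKM in control), LTBP1 (13.3 ± 3.09 FPKM in LDL, 13.3 ± 0.863 FPKM in control) and SMAD4 (12.6 ± 1.20 FPKM in LDL, 13.7 ± 0.511 FPKM in control) had ranges over the 8 libraries that overlapped from each gene to the next. SMAD2 (7.03 ± 1.89 FPKM in LDL, 9.02 ± 0.767 FPKM in control) and TGFBR1 (7.28 ± 0.704 FPKM in LDL, 7.08 ± 0.651 FPKM in control) overlapped each other and lay below the other 6. The place of SMAD2 rests on the deposited FPKM, and its counts per FPKM differed by 1.68-fold between libraries. In counts SMAD2 was even between groups, with means of 122.6 CPM in LDL and 121.8 CPM in control samples. TGFB2 was at 1.35 ± 0.413 FPKM in LDL and 1.56 ± 0.148 FPKM in control samples, and TGFBR3 was the lowest at 0.567 ± 0.131 FPKM in LDL and 0.538 ± 0.0671 FPKM in control samples (SD, n = 4 each). The type II receptor was thus above the type I receptor in every library, with a TGFBR1 to TGFBR2 ratio of FPKM of 0.402 to 0.502 in LDL and 0.437 to 0.526 in control libraries. The TGFB2 to TGFB1 ratio was 0.0159 to 0.033 in LDL and 0.0267 to 0.0357 in control libraries. In these bulk samples, fewer cells that carry an RNA and less of that RNA per cell cannot be told apart.

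**Figure D3:**
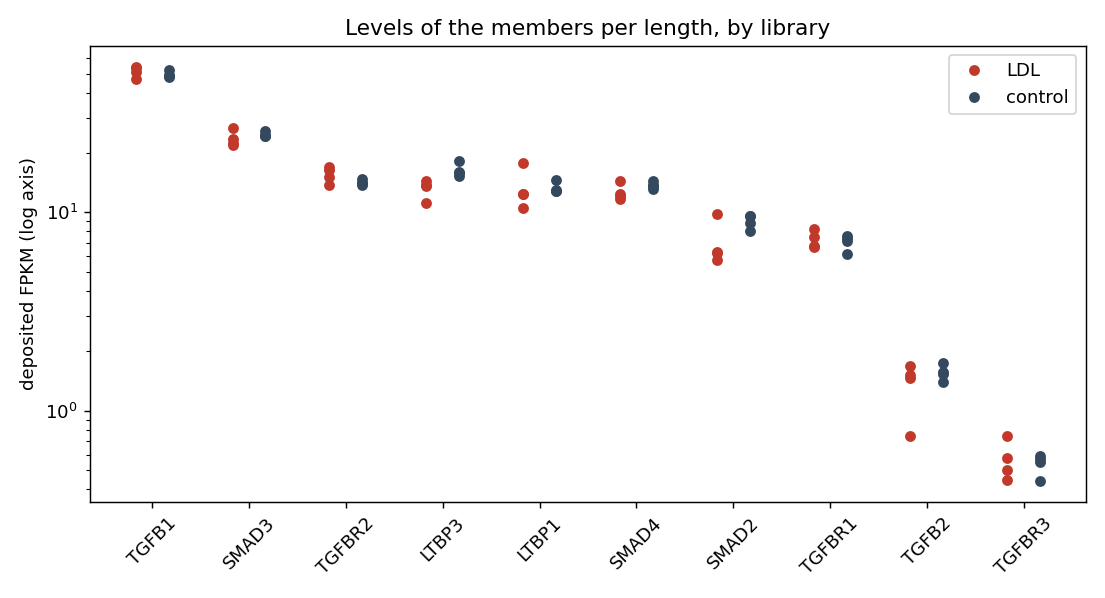
Deposited FPKM (log axis) of each component in the 4 LDL (red, left) and 4 control (dark, right) libraries, ordered by the mean over all 8. TGFB1 is the highest in every library, TGFBR2, LTBP3, LTBP1 and SMAD4 overlap in level, and TGFB2 and TGFBR3 are far below the rest.

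The 95% intervals of 8 of the 10 included 0, all but those of LTBP3 and SMAD4, and these intervals are not adjusted for the number of genes. The intervals of TGFB1, TGFBR1, SMAD2, SMAD3 and TGFBR2 each lay between 0.869 and 1.19 of the control level, while that of TGFB2 reached from 0.636 to 1.17 and that of TGFBR3 from 0.807 to 1.38.

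**Figure D4:**
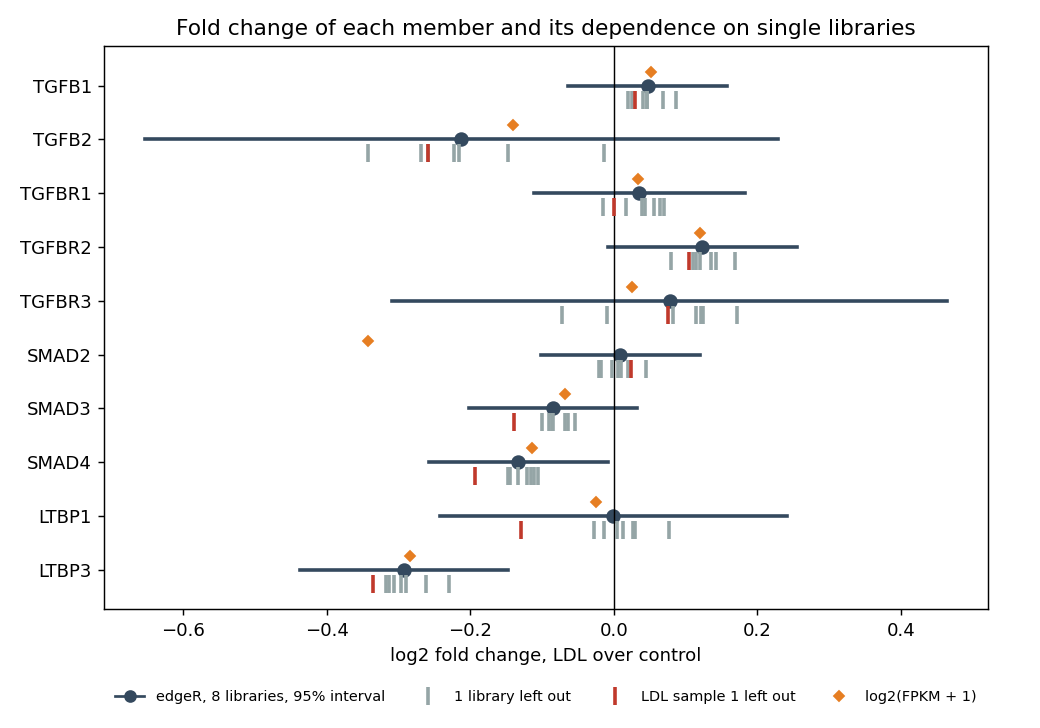
log2 fold change (LDL over control) of each component in edgeR with its 95% interval, with the values obtained when 1 library is left out (grey ticks; red without LDL sample 1) and the difference on the log2(FPKM + 1) scale (orange). LTBP3 stays below 0 throughout. SMAD3, SMAD4, LTBP1 and LTBP3 are lowest without LDL sample 1, and SMAD2 is near 0 in counts and at -0.34 in FPKM.

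The rest of the pathway was read from 6 lists of 100 genes, of which 92 were tested, and 0 of these passed the threshold in edgeR; DESeq2 called IGFBP3 among 98 tested, where it called 0.24% of all its features. By unadjusted p under 0.05 in edgeR there were 8, where 5.59% of all tested features fell under that value. Their median log2 fold change was -0.027, with 37 above and 55 below 0, beside 0.0060 over all tested features. Among 7 tested further ligands of the TGF-beta and activin class the median was 0.038, and INHBA, the subunit of activin A, stood at 33.4 ± 2.90 CPM in LDL and 32.6 ± 1.64 CPM in control samples (SD, n = 4 each). GDF11, a growth factor close to myostatin, was at 34.9 ± 2.40 CPM in LDL and 36.2 ± 2.64 CPM in control samples, and TGFB3, the remaining TGF-beta isoform, was low at 1.67 ± 0.454 CPM in LDL and 1.53 ± 0.410 CPM in control samples (SD, n = 4 each).

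In the list of latent complexes and ligand activation 19 of 22 genes were tested, 8 above and 11 below 0, with a median of -0.0044. THBS1, which encodes the activator thrombospondin-1, had 607.8, 673.9, 665.3 and 522.5 CPM in LDL samples 1 to 4, against 815.6, 674.3, 808.0 and 734.4 CPM in control samples 1 to 4. Its groups did not overlap, though LDL sample 2 and control sample 2 nearly met, and it did not pass (log2 fold change -0.30, SE 0.085, edgeR adjusted p = 0.662). ITGB6, the beta chain of an integrin that activates latent TGF-beta, had a log2 fold change of -0.19 (edgeR adjusted p = 0.884), and MMP14, a membrane protease, one of 0.30 (edgeR adjusted p = 0.882). Of 8 tested further receptors and co-receptors 7 lay below 0, with a median of -0.076. Within it the receptor adaptor TGFBRAP1 was at 59.7 ± 4.04 CPM in LDL and 63.1 ± 0.783 CPM in control samples, and ACVR1B, the activin type I receptor, at 38.7 ± 3.47 CPM in LDL and 40.7 ± 1.17 CPM in control samples (SD, n = 4 each). The endothelial co-receptor ENG was near 1 CPM.

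Of 25 tested regulators of the SMADs, 12 lay above and 13 below 0, with a median of -0.0028. SMAD7, the inhibitory SMAD that the pathway itself induces, had 66.9, 72.4, 68.0 and 65.8 CPM in LDL samples 1 to 4, against 79.8, 72.8, 75.6 and 75.4 CPM in control samples 1 to 4. Its groups did not overlap, and it did not pass (log2 fold change -0.15, SE 0.055, edgeR adjusted p = 0.802). PMEPA1, another induced inhibitor, had 654.3, 632.2, 652.4 and 533.6 CPM in LDL samples, against 666.8, 663.8, 672.2 and 666.7 CPM in control samples (log2 fold change -0.11, edgeR adjusted p = 0.879). LDL sample 4 was the lowest for PMEPA1 and the other 3 LDL samples lay just under the controls. The coactivator CREBBP stood at 99.9 ± 5.81 CPM in LDL and 108.6 ± 4.62 CPM in control samples (SD, n = 4 each; edgeR adjusted p = 0.878). The 8 genes of the SMAD-independent branch had a median of -0.038; the polarity gene PARD6A had a log2 fold change of 0.32, the ubiquitin ligase gene TRAF6 -0.11 and the kinase adaptor gene TAB2 -0.065, with edgeR adjusted p from 0.884 to 0.925.

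Of 25 tested target genes of the pathway 9 lay above and 16 below 0, with a median of -0.034. IGFBP3, a secreted binder of insulin-like growth factors, had 1437, 1375, 1358 and 1074 CPM in LDL samples 1 to 4, against 1580, 1548, 1618 and 1595 CPM in control samples 1 to 4. Its groups did not overlap, and its log2 fold change of -0.27 (SE 0.073) missed the edgeR threshold (adjusted p = 0.505). TAGLN, the actin-binding protein transgelin, stood at 107.7 ± 13.9 CPM in LDL and 91.9 ± 4.95 CPM in control samples (SD, n = 4 each; log2 fold change 0.23, edgeR adjusted p = 0.785). ANGPTL4, a lipoprotein lipase inhibitor, was at 54.8 ± 10.96 CPM in LDL and 39.3 ± 5.43 CPM in control samples (SD, n = 4 each; log2 fold change 0.48, edgeR adjusted p = 0.822). CDKN2B, the cell cycle inhibitor gene beside CDKN2A, had no read in any of the 8 libraries; at these depths a count of 0 leaves room for 3 counts, which is 0.0668 to 0.0865 CPM. Over all 92 tested genes of the lists, 4 had groups that did not overlap, THBS1, SMAD7, PMEPA1 and IGFBP3, all with LDL lower, where 3.45% of all tested features did not overlap and 1.71% did so with LDL lower.

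**Figure D5:**
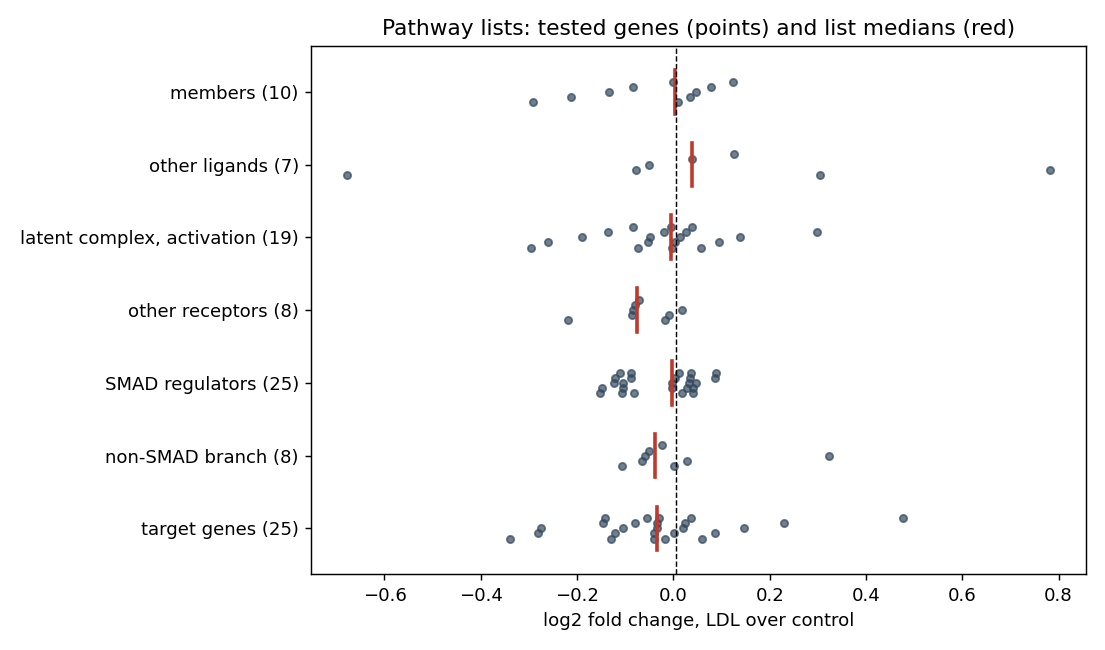
log2 fold change (LDL over control) of each tested gene in the 10 components and 6 pathway lists (points), with the list medians in red and the median of all tested features as a dashed line; the number tested is in brackets. The medians lie between -0.076 and 0.038.

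The genes whose log2 CPM followed LTBP3 most closely over the 8 libraries, among 12544 named genes with at least 1 CPM on average, were ATXN2L, CYP26A1, FECH, PCDH10 and UBTF, with Pearson correlations of 0.986, 0.985, 0.981, 0.98 and 0.978. CYP26A1, which breaks down retinoic acid, averaged 4.71 CPM in LDL and 9.69 CPM in control samples (log2 fold change -1.04, edgeR adjusted p = 0.17). The protocadherin gene PCDH10 averaged 5.16 CPM in LDL and 7.60 CPM in control samples, and the RNA polymerase I factor gene UBTF 222 CPM in LDL and 249.3 CPM in control samples. The RNA-binding protein gene ATXN2L averaged 167 CPM in LDL and 183 CPM in control samples, and the haem synthesis gene FECH 79.7 CPM in LDL and 84.5 CPM in control samples. None of the 5 passed in edgeR, with adjusted p from 0.17 to 0.884. They were picked as the highest of many correlations over few libraries.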

How the data were processed

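Total RNA extracted with Trizol went into TruSeq Stranded mRNA libraries, per the labels' protocols. Tools named in the submitters' processing notes are DESeq2 1.26.0, featureCounts and HISAT2, beside the build GRCh38, and none has a stated role. Which annotation was counted, and whether strand was used, is not given in the sources used here. Among the tested features are some whose names begin with MSTRG, which are neither gene symbols nor Ensembl identifiers. Deposited by the authors were a table of whole-number counts and a table of FPKM (fragments scaled to transcript length and library size), each with 8 columns matched to samples by title. Among counts of 1 to 20, 55.17% were even, and the cause was not tested. Whether the deposited values are plain or estimated counts is not given in the sources used here. They were whole already and were tested unchanged. Chi-square per degree of freedom between 2 libraries of the same group was 6.67 to 27.5, and none was counted as a repeat.

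Groups came from sample titles. Counts were tested with edgeR 4.0.16 in R 4.3.3: TMM factors, filterByExpr (15432 features kept), robust quasi-likelihood test, group as the only term, and a Benjamini-Hochberg adjusted p under 0.05 as the threshold. Single components had exact two-sided permutation tests. Alternatives used DESeq2 1.42.0, limma 3.58.1 (voom, or log2 of FPKM plus 1 or 0.1 keeping mean FPKM from 0.5 up or all genes), other scalings and filters, a replicate block, and each library left out; leaving out LDL samples 1 and 4 together was added after seeing the data. The gene test was checked on simulated counts. Coordinates and transcript lengths came from GENCODE 29 (GRCh38), upstream sequences from RefSeq (GRCh38.p14). The limit given for a count of 0 covers only counting error.

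The components and lists were chosen with earlier results of these data known. Of each list, up to 3 genes with the smallest p and at least 1 CPM on average are named. The 5 genes most correlated with the component of smallest p are named too. COL1A1, COL1A2 and CDKN2B of the target gene list are named outside this rule. The genes in the closing observations were chosen after their values were seen.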

Additional observations from a re-analysis of the deposited data

Results flagged for a closer look

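Of 72 quantities checked in groups of 4 libraries (CPM, FPKM and relative counts per FPKM of each component, and 6 ratios of FPKM), 6 had a library whose gap to its nearest neighbour exceeded Dixon's critical share of the group's range; chance gives about 5%, here 3.6. In SMAD2 FPKM among the LDL samples, sample 1 at 9.84 stood apart from 5.77 to 6.27 in the others (gap 0.877 of the range). In LTBP1 FPKM among the controls, sample 2 at 14.6 stood apart from 12.76 to 12.96 (0.893). In the TGFBR1 to TGFBR2 ratio of FPKM among the controls, sample 4 at 0.437 stood apart from 0.521 to 0.526 (0.937).

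The other 3 concern counts per FPKM relative to the library median, where the differences were small. TGFBR1 in control sample 4 was at 2.125 against 2.027 to 2.036 in the other controls (0.912). SMAD4 in control sample 2 was at 2.775 against 2.644 to 2.645 in the other controls (0.993). TGFBR2 in LDL sample 1 was at 1.495 against 1.486 to 1.488 in the other LDL samples (0.87).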

How the results depend on the processing

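The number of features called over all genes was 10, and 47 with DESeq2 (17 higher, 30 lower), 5 with log2(FPKM + 0.1), 2 with log2(FPKM + 1) and no minimum, and 248 without LDL samples 1 and 4 together; with single libraries left out it ran from 2 to 149. The number of components called was 0, and 1 (LTBP3) with DESeq2 and without LDL samples 1 and 4 together (log2 fold change -0.26, adjusted p = 0.0271 in edgeR), and 0 to 1 with single libraries left out. TGFB1, TGFBR2, SMAD3, SMAD4 and LTBP3 kept their direction under all 19 alternatives. SMAD2 was at -0.343 and -0.385 on the log2(FPKM + 1) and log2(FPKM + 0.1) scales and at -0.343 with no minimum. Without LDL samples 1 and 4 together TGFB2 was at 0.0147 and TGFBR3 at -0.164. With single libraries left out, SMAD2 ran from -0.021 to 0.0443, LTBP1 from -0.13 to 0.0774, TGFBR1 from -0.0154 to 0.0697 and TGFBR3 from -0.0727 to 0.171; for all these sign changes the cause was not tested. The medians of the latent complex list and of the SMAD regulators ran from -0.101 to 0.0175 and from -0.0694 to 0.000624, both lowest without LDL sample 1.

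Samples with the same number in both groups did not deviate together (correlations of -0.101, 0.0602, 0.0321 and -0.00433 for numbers 1 to 4). With so few samples, such correlations cannot tell if the numbers pair the samples by design. With the replicate block 2 features and 0 components were called, and the edgeR adjusted p of LTBP3 was 0.654. Counts were lowest for TGFBR3 and TGFB2, at 106 to 422 a library, and how far depth sets their wide intervals was not tested.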

Other observations

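Outside the 10 components, further genes of the pathway lists were high in LDL sample 1. IGF2R, the mannose 6-phosphate receptor that binds the latent precursor, had 166.7, 126.8, 119.8 and 122.0 CPM in LDL samples 1 to 4 and a mean of 147 ± 5.51 CPM in control samples (SD, n = 4). EP300, a SMAD coactivator, had 108.5, 74.9, 80.2 and 82.0 CPM in LDL samples 1 to 4 and a mean of 93.1 ± 5.40 CPM in control samples (SD, n = 4). In both, LDL samples 2, 3 and 4 lay below the control mean and LDL sample 1 above it, the order also seen in SMAD3, SMAD4 and LTBP1. FBN1 and ITGAV of the lists had this order as well, as did others such as USP9X, SKI, ACVR1B, TGFBRAP1 and FURIN. So did ERBB2 outside the pathway. How many of all tested features had this order was not counted, so it is not shown to be particular to the pathway. ERBB2 had 3092, 2219, 2351 and 2400 CPM in LDL samples 1 to 4 and a mean of 2590 CPM in control samples. Without LDL sample 1, IGF2R was the 1 gene of the lists that edgeR called, among 93 tested, where 0.954% of all tested features were called. Without LDL samples 1 and 4 together, EP300, IGF2R, IGFBP3, RNF111 and TAGLN were called, where 1.56% of all tested features were. That fit was added after seeing the data. TGFBI, a matrix protein gene named for its induction by TGF-beta, had a mean of 1310 ± 334.5 CPM in LDL and 1444 ± 39.8 CPM in control samples (SD, n = 4 each), and LDL sample 4 was the lowest at 822.8 CPM.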
